A study of Mus musculus with 16 samples.

Results

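The genes described here encode the subunits of the oxidative phosphorylation machinery, complexes I to V of the mitochondrial inner membrane, in the embryonic mouse stomach. Members were chosen by gene name from the deposited expression table: names that begin with Nduf and a subunit letter, Sdha to Sdhd, Uqcr, Cox4 to Cox8, Atp5, and the mitochondrially encoded mt-Nd, mt-Co, mt-Atp and mt-Cytb genes. The naming rule uses no measured value, but it was set with earlier results of these data known. The names gave 97 of the 53711 genes in the table, 84 of them in the nucleus and 13 on the mitochondrial chromosome. Another 5 names ending in -ps, which mark pseudogenes, were left out. By complex, the nuclear members were 36 of complex I, 4 of complex II, 8 of complex III, 19 of complex IV (Ndufa4 among them) and 17 of complex V. The mitochondrial members were 7 of complex I, 1 of complex III, 3 of complex IV and 2 of complex V. The names also drew in 3 genes that are not subunits, Atp5s, Atp5sl and Cox7a2l.

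RNA-seq was measured in 16 libraries, all given the strain Sox2-EGFP and Gata4-td Tomato in the labels, a pair of knock-in reporters that the study combined by crossing mice with 1 reporter allele each. EpCAM-positive epithelial cells were sorted by the reporters into Sox2hi cells, Sox2midGata4mid cells and Gata4hi cells, with 3, 2 and 3 libraries at E13.5 (embryonic days are written with an E). At E11.5 there was 1 library each of cells labelled Sox2hi and Gata4hi. The study describes these as Sox2-positive Gata4-negative and Sox2-positive Gata4hi cells. Whether their sort limits matched those of E13.5 is not given in the sources used here, so stage differences may include a difference in sorting. PDGFRα-positive fibroblasts of the proximal and of the distal stomach gave 1 library each at 3 stages, E13.5, then E15.5, then E17.5. The epithelial groups therefore rest on reporter intensity and the fibroblast groups on PDGFRα staining and stomach region. For the fibroblasts no genotype is given beyond the strain label, and the number of embryos behind each library is not given in the sources used here. Nothing says that replicates came from separate embryos, so p-values measure only the spread between these samples, which may be technical. In RNA from sorted populations, fewer cells of a type and less RNA per cell cannot be told apart.

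Complexes I and II pass electrons from NADH and succinate to coenzyme Q, complex III passes them on to cytochrome c and complex IV to oxygen. Complexes I, III and IV pump protons, and complex V, the ATP synthase, uses the proton gradient to make ATP. Complex II is encoded wholly in the nucleus, whereas the other complexes combine nuclear subunits with core subunits transcribed as long polycistronic RNAs from both strands of the mitochondrial chromosome. Several small subunits of complex IV and the membrane ring of complex V exist as tissue isoforms encoded by separate genes. Nuclear subunit genes are known to carry binding sites for NRF1, for ETS factors such as GABP, for YY1 and for the oestrogen-related receptors (ERR) in their promoters.

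Because nuclear members are known for such sites, 4 promoters are shown, each with 1 or more of the motifs in capitals. A RefSeq promoter window (GRCm38.p6, 250 bases before to 50 after the start) was matched for 67 of the 84 nuclear members, and the 120 bases before the start are printed from 5′ to 3′ on the strand of the gene. Atp5g2 encodes 1 of 3 isoforms of the ring subunit c and Atp5l the membrane subunit g of complex V, Uqcr11 a small subunit of complex III, and Atp5j the peripheral stalk subunit F6. In Atp5g2, on chromosome 15 (chr15:102671048-102671167, minus strand), the capitals mark GCGCATGCGC, which holds the NRF1 motif GCGCATGC on both strands in overlap. In Uqcr11 (chr10:80406822-80406941, minus strand) they mark the ETS motif CCGGAAG. In Atp5j (chr16:84834977-84835096, minus strand) they mark the YY1 motif AAGATGGC and then CCGGAAG. In Atp5l (chr9:44920743-44920862, minus strand) they mark the ERR motif CAAGGTCA in reverse complement.
Atp5g2: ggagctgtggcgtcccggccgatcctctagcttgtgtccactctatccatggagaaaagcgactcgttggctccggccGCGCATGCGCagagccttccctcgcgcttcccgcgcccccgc
Uqcr11: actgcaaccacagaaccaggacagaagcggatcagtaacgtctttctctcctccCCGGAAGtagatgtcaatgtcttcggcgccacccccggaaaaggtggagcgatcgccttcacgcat
Atp5j: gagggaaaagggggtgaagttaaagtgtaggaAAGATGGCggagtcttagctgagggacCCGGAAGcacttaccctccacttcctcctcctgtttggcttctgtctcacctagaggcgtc
Atp5l: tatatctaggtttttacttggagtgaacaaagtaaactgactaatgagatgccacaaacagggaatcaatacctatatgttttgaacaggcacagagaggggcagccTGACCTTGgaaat

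Over the 67 members, 31 had at least 1 of the 4 motifs on either strand. GCGCATGC stood in 10 members (14.9%), in 3.05% of all 27025 genes of the promoter table and in 6.26% of the 9170 of these that averaged 1 FPKM or more (fragments per kilobase of transcript, scaled to the mapped fragments of a library). CCGGAAG stood in 16 members (23.9%), against 9.93% of all genes and 20.1% of the expressed ones. AAGATGGC stood in 9 members (13.4%), against 3.19% and 5.46%, and CAAGGTCA in 4 members (5.97%), against 1.76% and 1.25%. The share of members with a motif was thus closest to that of other expressed genes for the ETS motif. A match is a run of letters in the window, not a site shown to be bound.

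The table holds FPKM, so levels can be compared between genes per length, but no counts and no total depth. Relative depth, read from the steps between low values, ranged from 0.393 to 1.065 of that of Sox2hi replicate 1, and from 0.72 to 1.065 within the E13.5 epithelium. FPKM sums ranged from 436296 to 656588 over the libraries, and in the E13.5 epithelium the group means were 484298 in Sox2hi, 440974 in Sox2midGata4mid and 540376 in Gata4hi cells, so counts of calls are given on the FPKM scale and on the TPM scale, where every library is divided by its FPKM sum. A difference given with no scale is on the FPKM scale. The 6 epithelial markers (Epcam, Cdh1, Krt8, Krt18, Krt19 and Cldn6) summed to 1012 to 1583 FPKM in the epithelium and to 1.49 to 9.26 in the fibroblasts. The 5 fibroblast markers (Pdgfra, Col1a1, Col1a2, Col3a1 and Dcn) summed to 9.38 to 102 FPKM in the epithelium. In the fibroblasts they summed to 4532 to 5617 at E13.5, to 11094 to 16285 at E15.5 and to 23758 to 32580 at E17.5. Smooth muscle markers (Acta2, Myh11, Actg2, Des and Cnn1) summed to 366 to 1004 FPKM in the fibroblasts. Summed markers of immune cells (1.30 to 4.55 FPKM), endothelium (0.179 to 0.978), mesothelium (0 to 10.2), neural crest and neurons (0.0371 to 3.04), erythroid cells (0 to 19.2) and endocrine cells (0 to 28.5) were lower than those of the sorted cell type in every library. Some of these moved with the E13.5 sort groups. The endocrine markers (Chga, Neurog3 and Ghrl) summed to 0 to 0.811 FPKM in Sox2hi, 2.55 and 3.26 in Sox2midGata4mid and 19.2 to 28.5 in Gata4hi cells, and the mesothelial markers (Upk3b, Msln and Wt1) to 0.814 to 1.11, 1.87 and 3.25, and 7.02 to 10.2. The rise of the mesothelial sum was almost wholly Msln, at 0.72 to 0.86 FPKM in Sox2hi and 6.93 to 9.86 in Gata4hi cells. Upk3b was at most 0.238 FPKM in the E13.5 epithelium, and Wt1 overlapped between Sox2hi and Gata4hi cells. The sum of the 5 fibroblast markers went the other way, at 62.7 to 102 FPKM in Sox2hi, 14.5 and 15.53 in Sox2midGata4mid and 9.38 to 20.9 in Gata4hi cells. That came from Dcn alone, at 57.1 to 97.4 in Sox2hi and 0.609 to 0.762 in Gata4hi cells. Pdgfra was higher in Gata4hi cells, at 0.354 to 0.439 FPKM in Sox2hi and 0.544 to 1.34 in Gata4hi cells. Col1a1, Col1a2 and Col3a1 overlapped between Sox2hi and Gata4hi cells. The part of all these markers in the differences between the sort groups was not tested.

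Most nuclear members were well expressed in every library. Of the 84, 75 averaged 20 FPKM or more over the 16 libraries, 5 averaged from 1 to 20, and 4 below 1. The highest nuclear value was 1014.6 FPKM, for Cox6b1 in E13.5 proximal fibroblasts. As a share of the FPKM sum of a library, the nuclear members took 2.26, 2.27 and 2.17% in E13.5 Sox2hi cells, 2.08 and 2.07% in Sox2midGata4mid cells and 2.23, 2.30 and 2.22% in Gata4hi cells. The group means were 2.23% ± 0.056 (SD, n = 3), 2.08% ± 0.0092 (n = 2) and 2.25% ± 0.044 (n = 3). The share in Sox2hi and Gata4hi cells thus overlapped, and both Sox2midGata4mid libraries lay below the other 6. By complex, the mean shares in Sox2hi, Sox2midGata4mid and Gata4hi cells were 0.631, 0.589 and 0.639% for complex I, 0.0640, 0.0638 and 0.0696% for II, 0.224, 0.197 and 0.217% for III, 0.657, 0.597 and 0.653% for IV and 0.658, 0.631 and 0.671% for V. In complexes I, III, IV and V both Sox2midGata4mid libraries lay below the other 6, and in complex II they overlapped the Sox2hi libraries. At E11.5 the nuclear share was 2.21% in Sox2hi and 2.16% in Gata4hi cells. In the fibroblasts it went from 2.36% (proximal) and 2.28% (distal) at E13.5 through 1.96 and 1.83% at E15.5 to 1.65 and 1.59% at E17.5, the lowest of all libraries.

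The 13 mitochondrial members varied more between replicates. They took 1.29, 1.47 and 1.53% of the FPKM sum in E13.5 Sox2hi cells (mean 1.43% ± 0.12 SD, n = 3), 1.22 and 1.24% in Sox2midGata4mid cells (1.23% ± 0.019, n = 2) and 1.26, 1.03 and 1.42% in Gata4hi cells (1.24% ± 0.20, n = 3). The Gata4hi range contained both Sox2midGata4mid values and overlapped that of Sox2hi cells. At E11.5 the mitochondrial share was 1.55% in Sox2hi and 1.24% in Gata4hi cells. In the fibroblasts it was 1.87% (proximal) and 1.46% (distal) at E13.5, 1.42 and 1.46% at E15.5, and 1.04 and 0.959% at E17.5. The libraries were made from polyadenylated RNA.

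**Figure D1:**
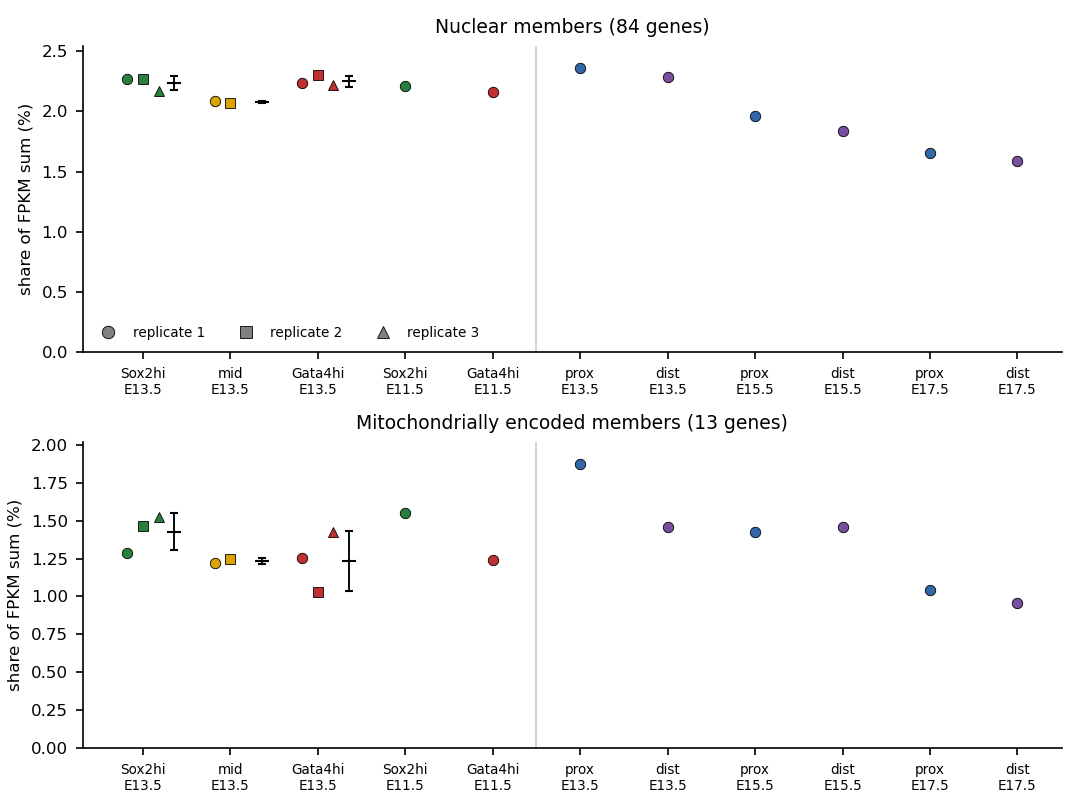
Share of each library's FPKM sum (%, y axis from 0) taken by the 84 nuclear members (top) and the 13 mitochondrially encoded members (bottom) in each group (x axis). Points are libraries, with circles, squares and triangles for replicates 1, 2 and 3, and black bars are mean ± SD of the E13.5 epithelial groups; the nuclear share was 2.07 to 2.30% in these 8 libraries and was 1.65 and 1.59% in E17.5 fibroblasts.

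Among the mitochondrial members, 7 were abundant and 6 were almost unmeasured. mt-Cytb, mt-Co1, mt-Nd1, mt-Nd2, mt-Nd4, mt-Nd5 and mt-Nd6 ranged from 70.3 to 3220 FPKM over the libraries. mt-Nd3, mt-Nd4l, mt-Co2, mt-Co3, mt-Atp6 and mt-Atp8 ranged from 0 to 27.2 FPKM, and their sum was 6.25 to 52.1. That sum was 31.6 and 31.0 FPKM in replicate 3 of the Sox2hi and Gata4hi cells, against 6.25 to 10.4 in replicates 1 and 2 of the E13.5 groups, and 12.3 to 52.1 in the E11.5 and fibroblast libraries. The low genes include core subunits of complexes I, IV and V that are transcribed on the same RNA as their abundant neighbours. A run of 7 annotated genes on chromosome 1 (24611535 to 24616197, mm10) holds near-identical copies of mt-Co1, mt-Co2, mt-Atp6, mt-Co3, mt-Nd3, mt-Nd4l and mt-Nd4. For 5 of the 6 low genes the copy spanned at least 99.0% of the gene at an identity of at least 99.71%, for mt-Nd4 it spanned 63.6% and for mt-Co1 31.3%, and the search gave none for mt-Atp8. The 7 copies summed to 5.39 to 30.4 FPKM in a library. How reads that match more than 1 place were counted is not given in the sources used here, and the part of the copies in the low values was not tested. The first 90 bases of mt-Nd3 (chromosome M, 9459 to 9806) and of its copy Gm28438 (chromosome 1, 24612775 to 24613119) are shown because they carry the only difference between both genes over their shared length, T3C (mt-Nd3 base, position from the first base of the transcript, copy base), in capitals.
mt-Nd3: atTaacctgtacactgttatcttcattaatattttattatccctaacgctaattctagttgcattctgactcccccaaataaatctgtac
Gm28438: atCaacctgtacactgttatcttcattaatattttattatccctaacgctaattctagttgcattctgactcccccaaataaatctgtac

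mt-Cytb, the cytochrome b of complex III, was at 1650.2, 1780.1 and 1826 FPKM in Sox2hi, 1393 and 1355 in Sox2midGata4mid and 1800.2, 1424 and 1837 in Gata4hi cells. mt-Nd2, a proton-pumping subunit of complex I, was at 615, 649 and 765 FPKM in Sox2hi, 457 and 431 in Sox2midGata4mid and 631, 494 and 759.6 in Gata4hi cells. Both were lowest in Sox2midGata4mid cells, with Gata4hi replicate 2 next to them. mt-Nd4l, the lowest member, ranged from 0 to 2.39 FPKM over the 16 libraries. mt-Nd6, the only protein gene on the light strand of the mitochondrial chromosome, was at 134.8, 98.1 and 89.2 FPKM in Sox2hi, 82.5 and 70.3 in Sox2midGata4mid and 126, 113 and 108 in Gata4hi cells, and at 261, 235 and 231 in proximal and 129, 263 and 184 in distal fibroblasts, from the youngest to the oldest stage. In distal fibroblasts mt-Nd6 was lowest at E13.5, whereas the 6 other abundant members were lowest at E17.5.

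The first comparison asks how the subunits differ between Gata4hi cells, the columnar side of the junction, and Sox2hi cells, the squamous side, at E13.5. Of 80 nuclear members tested, 18 were higher in Gata4hi cells by limma on log2(FPKM + 1) (Benjamini-Hochberg adjusted p under 0.05), against 14.9% of all 13127 genes tested, and 2 were lower, against 6.7% of all genes. The higher members were 9 of 36 tested in complex I, 1 of 4 in II, 1 of 8 in III, 4 of 15 in IV and 3 of 17 in V. The median nuclear log2 difference was 0.21, beside 0.084 for all genes, and 39 nuclear members had an unadjusted p under 0.05. The share of all genes at that unadjusted cut is not given here or below, so such counts lack a background. After division by the FPKM sum 2 were higher (9.42% of all genes) and 3 lower (10.4%), with a median of 0.055 beside −0.055 for all genes. Ndufv3 and Ndufa9 were called higher on both scales, and Cox6b2 and Ndufb8 lower on both. With the replicate number as a block, 16 were higher and 1 lower on the FPKM scale. The count of higher members changed when single libraries were left out: it was 8, 4 or 9 without Sox2hi replicate 1, 2 or 3, and 6 or 7 without Gata4hi replicate 1 or 2. The share of all genes called without each library is not given here. A loss of calls in all genes and one in the members can thus not be told apart. The count of lower members was 1 without any 1 of the Sox2hi or Sox2midGata4mid libraries or Gata4hi replicate 1 or 3.

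None of the 11 mitochondrial members tested was called between Gata4hi and Sox2hi cells, and none had an unadjusted p under 0.05 on the FPKM scale (1 on the TPM scale). Their median log2 difference was −0.062 on the FPKM and −0.22 on the TPM scale. The summed nuclear FPKM was 1.12 times as high in Gata4hi as in Sox2hi cells and the summed mitochondrial FPKM 0.966 times.

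**Figure D2:**
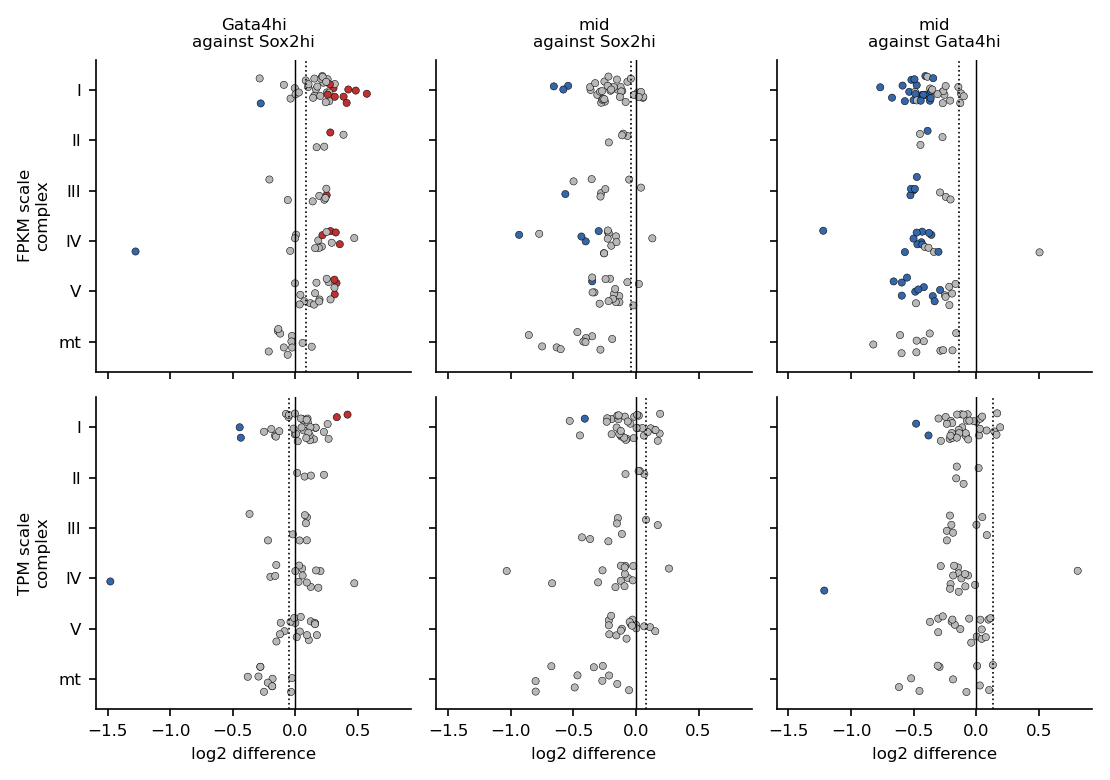
Log2 differences of each member tested (points, x axis) in the 3 comparisons of E13.5 epithelial groups (columns, mid for Sox2midGata4mid), by nuclear complex I to V and mitochondrial genes (mt, y axis), on the FPKM scale (top) and the TPM scale (bottom). Red and blue mark members called higher and lower by limma, grey those not called, and dotted lines the median of all genes; 18 nuclear members were called higher in Gata4hi than Sox2hi cells on the FPKM scale and 2 on the TPM scale.

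In complex I, 2 of the higher members were called on both scales. Coordinates are those of the deposited table (mm10). Ndufv3 (ENSMUSG00000024038, chromosome 17, 31520115 to 31531326), a small accessory subunit of the NADH-oxidising module, was at 68.0, 65.1 and 75.2 FPKM in Sox2hi, 60.0 and 60.6 in Sox2midGata4mid and 96.1, 118 and 97.6 in Gata4hi cells, and at 90.4 and 91.5 in Sox2hi and Gata4hi cells of E11.5. All Gata4hi values lay above those of the other E13.5 groups, with a log2 difference from Sox2hi cells of 0.57 ± 0.098 (SE), adjusted p = 0.00486 (limma), and 0.42 on the TPM scale, adjusted p = 0.0165. Ndufa9 (chromosome 6, 126821721 to 126849136), a nucleotide-binding subunit at the foot of the peripheral arm, was at 40.8, 35.7 and 36.7 FPKM in Sox2hi, 41.3 and 37.2 in Sox2midGata4mid and 52.7, 51.4 and 55.0 in Gata4hi cells. Here too Gata4hi cells stood alone, at 0.48 ± 0.082 (SE) on the log2 scale, adjusted p = 0.0048 (TPM scale 0.33, adjusted p = 0.0276). The other higher members of complex I were Ndufa2, Ndufa3, Ndufa6, Ndufb2, Ndufb9, Ndufb11 and Ndufs8, with log2 differences from 0.26 to 0.42 on the FPKM scale, and none of these was called on the TPM scale (0.10 to 0.26, adjusted p from 0.0578 to 0.386).

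Ndufb8 (chromosome 19, 44548572 to 44555440), a subunit of the membrane arm, went the other way. It was at 233, 229 and 261 FPKM in Sox2hi, 168 and 162 in Sox2midGata4mid and 188, 213 and 195 in Gata4hi cells. Sox2hi cells were above both other groups with no overlap, the difference of Gata4hi from Sox2hi cells being −0.28 ± 0.077 (SE) on the log2 FPKM scale, adjusted p = 0.038, and −0.44 on the TPM scale, adjusted p = 0.00332. With the replicate block the Ndufb8 difference on the FPKM scale was no longer called. Ndufa1, a small membrane-anchored subunit of complex I encoded on the X chromosome, was at 76.0, 66.4 and 63.0 FPKM in Sox2hi, 38.6 and 47.8 in Sox2midGata4mid and 53.2, 57.5 and 56.9 in Gata4hi cells. Its difference between Gata4hi and Sox2hi cells was called on the TPM scale (−0.45, adjusted p = 0.0325) and missed the threshold on the FPKM scale (−0.29, adjusted p = 0.0996).

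In complexes II and III 1 gene each was higher in Gata4hi cells. Sdhd, a membrane anchor of succinate dehydrogenase, was at 55.1, 52.0 and 56.0 FPKM in Sox2hi, 51.9 and 48.7 in Sox2midGata4mid and 71.2, 65.8 and 61.7 in Gata4hi cells, with a log2 difference of 0.28 ± 0.078 (SE), adjusted p = 0.0391. Uqcr11, whose promoter is shown above, was at 176, 157 and 166 FPKM in Sox2hi, 137 and 137 in Sox2midGata4mid and 198, 208 and 187 in Gata4hi cells, with 0.25 ± 0.07 (SE), adjusted p = 0.0399. For both genes the 3 groups did not overlap on the FPKM scale, and neither difference was called on the TPM scale (0.12 with adjusted p = 0.28 and 0.091 with adjusted p = 0.405).

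Complex IV held the largest difference of all, in an isoform gene. Cox6b2 (ENSMUSG00000051811, chromosome 7, 4751792 to 4753094) encodes the isoform of subunit VIb known from testis. It was at 22.5, 19.7 and 19.3 FPKM in Sox2hi, 14.2 and 9.40 in Sox2midGata4mid and 10.1, 7.22 and 6.64 in Gata4hi cells, and at 14.1 and 9.96 at E11.5. The mean was 2.57 times as high in Sox2hi as in Gata4hi cells with no overlap, a log2 difference of Gata4hi from Sox2hi of −1.28 ± 0.19 (SE), adjusted p = 0.00233 (TPM scale −1.48, adjusted p = 0.00124). The widely expressed Cox6b1 ran the other way, at 768, 727 and 694 FPKM in Sox2hi, 599 and 623 in Sox2midGata4mid and 865, 858 and 817 in Gata4hi cells (log2 difference of Gata4hi from Sox2hi 0.22, adjusted p = 0.0356; TPM scale 0.057, adjusted p = 0.596).

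The other complex IV genes higher in Gata4hi cells were Cox5b, Cox7b and Cox7a2l. Cox7a2l, which is known for joining complexes III and IV into supercomplexes and is not a subunit, was at 56.3, 53.8 and 61.2 FPKM in Sox2hi, 51.2 and 46.8 in Sox2midGata4mid and 74.8, 71.2 and 73.5 in Gata4hi cells (log2 0.35 ± 0.076 (SE), adjusted p = 0.0134; TPM scale 0.20, adjusted p = 0.0737). Cox7b, a small structural subunit, was at 206, 197 and 190.2 FPKM in Sox2hi, 177 and 178 in Sox2midGata4mid and 249.1, 275 and 221 in Gata4hi cells (log2 0.32 ± 0.086 (SE), adjusted p = 0.033; TPM scale 0.16, adjusted p = 0.246). Both were highest in all Gata4hi libraries. Cox7a2l shares identical sequence with another gene, Gm6969, and summed with it the Sox2hi and Gata4hi ranges overlapped, as given below.

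In complex V the genes higher in Gata4hi cells belong to the rotor, the ring and the membrane part. Atp5c1, the gamma subunit of the central stalk, was at 118, 106 and 110.1 FPKM in Sox2hi, 117 and 103 in Sox2midGata4mid and 144, 137 and 139 in Gata4hi cells (log2 0.33 ± 0.076 (SE), adjusted p = 0.0188). Atp5g2 was at 148, 151 and 126 FPKM in Sox2hi, 125 and 124 in Sox2midGata4mid and 176, 191 and 161 in Gata4hi cells (log2 0.31 ± 0.093 (SE), adjusted p = 0.0494). Atp5l was at 54.0, 57.3 and 53.9 FPKM in Sox2hi, 45.2 and 47.5 in Sox2midGata4mid and 64.2, 74.4 and 67.4 in Gata4hi cells (log2 0.31 ± 0.077 (SE), adjusted p = 0.0248). In each of these genes Gata4hi cells lay above the other groups with no overlap on the FPKM scale, and on the TPM scale the differences were 0.17, 0.16 and 0.16 with adjusted p of 0.142, 0.352 and 0.256. The catalytic subunit gene Atp5b, the most abundant of complex V, was at 779.7, 777 and 897 FPKM in Sox2hi and 885, 836 and 941 in Gata4hi cells, which overlapped (adjusted p = 0.332).

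Of these calls between Gata4hi and Sox2hi cells, those of Ndufv3, Ndufa9 and Cox6b2 remained without any 1 of the 8 libraries. Cox7a2l lost its call without Sox2hi replicate 2, Atp5c1 without Sox2hi replicate 2 or 3 or Gata4hi replicate 1, and Atp5l without Sox2hi replicate 1 or 3 or Gata4hi replicate 2 or 3. Sdhd lost it without any Sox2hi library or Gata4hi replicate 1 or 2, Uqcr11 without any library but Sox2hi replicate 1 and Gata4hi replicate 3, and Cox7b and Atp5g2 without any but Gata4hi replicate 3. Ndufb8 lost it without any but Gata4hi replicate 2. Each of them kept its sign without each library.

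The comparisons with Sox2midGata4mid cells ask whether the intermediate population lies between the others. Against Sox2hi cells, none of the 80 nuclear members was higher in Sox2midGata4mid cells on the FPKM scale (2.54% of all genes), and 9 were lower (3.01% of all genes): 3 of complex I, 1 of III, 4 of IV and 1 of V. The median was −0.22 beside −0.040 for all genes, and 33 members had an unadjusted p under 0.05. For this cut the share of all genes is not given, here or against Gata4hi cells. As TPM none was higher (4.48%) and Ndufb8 alone was lower (2.18%), with a median of −0.086 beside 0.082. Against Gata4hi cells, with which that comparison shares the Sox2midGata4mid libraries, none was higher (2.59%) and 47 were lower (11% of all genes) on the FPKM scale: 20 of complex I, 1 of II, 5 of III, 11 of IV and 10 of V, with a median of −0.41 beside −0.13 and 66 members at an unadjusted p under 0.05. Scaled to TPM none was higher (6.41%) and 3 were lower (3.03%), namely Cox7a1, Ndufv3 and Ndufa3, with a median of −0.12 beside 0.13.

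No mitochondrial member was called in either comparison. At an unadjusted p under 0.05 there were 5 against Sox2hi and 3 against Gata4hi cells on the FPKM scale, and 1 and 0 on the TPM scale. The summed nuclear FPKM of Sox2midGata4mid cells was 0.847 times that of Sox2hi and 0.754 times that of Gata4hi cells, and as a share of the FPKM sum 0.930 and 0.924 times. The counts changed when single libraries were left out, for which the share of all genes called is not given. Against Sox2hi cells the nuclear count of 9 was 1 without Sox2hi replicate 1 or 2 or Sox2midGata4mid replicate 1, 3 without Sox2hi replicate 3 or Sox2midGata4mid replicate 2, 4 without Gata4hi replicate 1 and 5 without Gata4hi replicate 2 or 3. Against Gata4hi cells the count of 47 was 22 and 13 without Sox2midGata4mid replicate 1 and 2, and 24 and 25 without Gata4hi replicate 1 and 2. Sox2midGata4mid cells have no replicate 3, whose column names in the other groups share a style with the E11.5 and fibroblast libraries, and no source says what the styles stand for.

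The members lower than both neighbours on the FPKM scale were Atp5d, Cox4i1, Cox6c, Cox7a1, Cox7a2, Ndufc1 and Uqcr10. Cox7a2, the widely expressed isoform of subunit VIIa, was at 128 and 122 FPKM in Sox2midGata4mid cells against 171, 164 and 173 in Sox2hi and 172, 180.1 and 155.4 in Gata4hi cells (log2 −0.43 and −0.43, adjusted p = 0.0222 and 0.0139). Uqcr10, a small subunit of complex III, was at 147 and 156 FPKM against 252, 214 and 208 in Sox2hi and 205, 239 and 202 in Gata4hi cells (log2 −0.56 and −0.50, adjusted p = 0.0269 and 0.0246). Neither range of the Sox2midGata4mid libraries reached those of the other groups. Ndufc1, of the membrane arm of complex I, was at 117 and 125 FPKM against 167, 213 and 169 in Sox2hi and 185, 153 and 174 in Gata4hi cells (adjusted p = 0.0423 and 0.0439). Cox4i1, the common isoform of subunit IV, was at 461 and 395 FPKM against 554, 534 and 604 in Sox2hi and 532, 543 and 566 in Gata4hi cells (adjusted p = 0.0412 and 0.035). Atp5d, the delta subunit of the central stalk, was at 124 and 134 FPKM against 166, 159 and 169.7 in Sox2hi and 179, 176 and 165 in Gata4hi cells (adjusted p = 0.0357 and 0.0107). The structural subunit Cox6c was at 221 and 206 FPKM against 253, 264 and 271 in Sox2hi and 267, 253 and 271 in Gata4hi cells (adjusted p = 0.0498 and 0.0281). In all of these genes both Sox2midGata4mid values lay below all others. On the TPM scale none of the 7 was called against Sox2hi cells (adjusted p from 0.0548 to 0.19), and Cox7a1 alone was called against Gata4hi cells (0.397, 0.263, 0.273, 0.276, 0.604 and 0.94 for Ndufc1, Cox7a2, Atp5d, Uqcr10, Cox4i1 and Cox6c). With the replicate number as a block, 3 members were called lower than in Sox2hi cells, and of the 7 only Uqcr10 was among them. Against Gata4hi cells Cox6c and Ndufc1 lost their calls under the block. In the 2 groups alone Cox7a2 was the only one of the 7 called against Sox2hi cells, and with replicates 1 and 2 alone none was. After quantile normalization the differences of Cox4i1 and Cox6c from Gata4hi cells changed sign, to 0.051 and 0.027.

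Tissue isoforms of complex IV subunits were at low levels beside their common counterparts. Cox7a1 (chromosome 7, 30184144 to 30186078), the isoform of subunit VIIa known from heart and skeletal muscle, was at 3.78, 3.24 and 3.05 FPKM in Sox2hi, 0.885 and 1.75 in Sox2midGata4mid and 3.55, 4.95 and 4.55 in Gata4hi cells. Its mean was 2.55 and 3.30 times as high in Sox2hi and Gata4hi as in Sox2midGata4mid cells (log2 −0.93 ± 0.21 (SE), adjusted p = 0.0485, and −1.22 ± 0.21 (SE), adjusted p = 0.0109; TPM scale −1.03 and −1.21, adjusted p = 0.0612 and 0.0307). In the fibroblasts Cox7a1 was listed at 0 in 3 libraries and at 0.311 to 1.66 FPKM in the others. The read numbers behind these low values are unknown.

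Cox6b2 took 2.64 to 2.85% of the summed Cox6b1 and Cox6b2 FPKM in E13.5 Sox2hi cells, 1.49 and 2.32% in Sox2midGata4mid cells and 0.806 to 1.15% in Gata4hi cells, so that the groups did not overlap. In the fibroblasts the Cox6b2 share was 5.19 to 11.6%. Cox4i2, the lung isoform of subunit IV, was at 1.25, 1.14 and 0.928 FPKM in Sox2hi, 0.956 and 1.71 in Sox2midGata4mid and 1.80, 1.91 and 2.03 in Gata4hi cells, at 4.32 and 4.76 at E11.5, and at 2.83, 2.37 and 1.87 in proximal and 3.69, 10.5 and 5.83 in distal fibroblasts, from the youngest to the oldest stage. It took 0.153 to 0.803% of the summed Cox4i1 and Cox4i2 in the epithelium and 0.391 to 2.21% in the fibroblasts. Ndufa4l2, a relative of Ndufa4 known to be induced by hypoxia and outside the naming rule, was at 5.10, 1.55 and 3.10 FPKM in Sox2hi cells, was listed at 0 in both Sox2midGata4mid libraries, and was at 1.37, 0.874 and 0.7199 FPKM in Gata4hi cells. In the fibroblasts Ndufa4l2 was at 0, 49.97 and 131 FPKM in the proximal and at 0.488, 17.1 and 47.9 in the distal libraries in the order of stages, whereas Ndufa4 itself was at 325, 197 and 136 FPKM in the proximal ones.

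The heart and muscle isoform Cox6a2 and the testis isoform Cox8c were listed at 0 in all 16 libraries. The muscle isoform Cox8b was listed at 0 outside E13.5 and E15.5 proximal fibroblasts (0.748 and 1.30 FPKM), and the testis isoform Cox7b2 at 0 outside E15.5 and E17.5 distal fibroblasts (0.129 and 0.234 FPKM). The 3 genes for the identical ring subunit c kept similar proportions throughout: Atp5g3 made up 44.1 to 52.4% of their summed FPKM in the epithelium and 49.1 to 52.8% in the fibroblasts, Atp5g2 33.4 to 41.2% and 29.7 to 35.9%, and Atp5g1 12.8 to 17.7% and 14.6 to 18.4%.

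**Figure D3:**
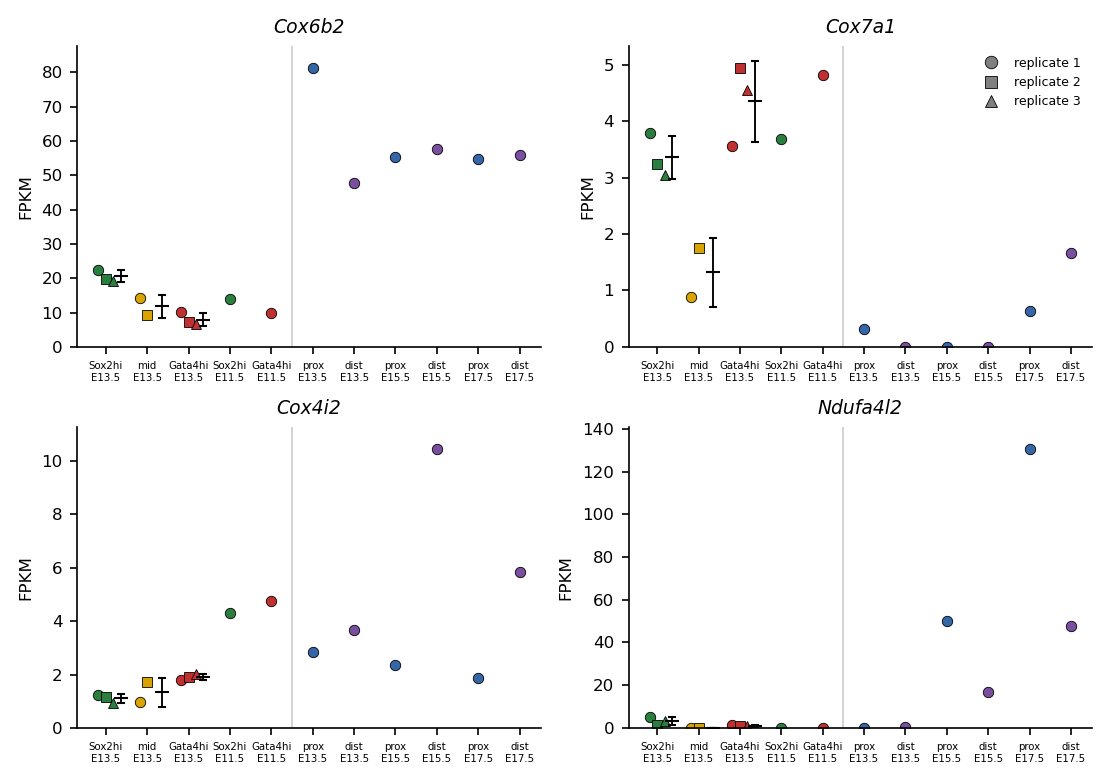
FPKM (y axes from 0) of Cox6b2, Cox7a1, Cox4i2 and Ndufa4l2 in each group (x axes, prox and dist for proximal and distal fibroblasts). Points are libraries, with circles, squares and triangles for replicates 1, 2 and 3, and black bars are mean ± SD of the E13.5 epithelial groups; Cox6b2 was at 19.3 to 22.5 in E13.5 Sox2hi and 6.64 to 10.1 in Gata4hi cells, and Ndufa4l2 reached 131 in E17.5 proximal fibroblasts.

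Between E11.5 and E13.5 few subunits were called in the epithelium. With sort group as a term, none of 80 nuclear members was higher at E13.5 on the FPKM scale (2.02% of all 13114 genes) and 2 were lower (3.67%), at a median of −0.10 beside −0.079 for all genes. On the TPM scale none was higher (3.5%) and 1 was lower (1.88%), at a median of 0.027 beside 0.038. Ndufa10, an accessory subunit of complex I, was at 154 and 177 FPKM in E11.5 Sox2hi and Gata4hi cells and at 110.4, 119 and 108 in Sox2hi and 114, 143 and 139 in Gata4hi cells at E13.5 (log2 −0.44 ± 0.098 (SE), adjusted p = 0.0447; TPM scale −0.31, adjusted p = 0.141). The other was Cox4i2 (log2 −1.16 ± 0.17 (SE), adjusted p = 0.0131; TPM scale −1.24, adjusted p = 0.0194), whose E11.5 values both lay above all E13.5 ones. No mitochondrial member was called, nor had any an unadjusted p under 0.05, against 11 nuclear members (the share of all genes is not given). Of the E13.5 epithelial libraries only replicate 3 of Sox2hi and Gata4hi cells has the column name style of the E11.5 libraries. From E11.5 to replicate 3 alone, the mitochondrial median difference was 0.34 in Gata4hi cells, with 12 of 12 members positive, and −0.016 in Sox2hi cells, with 6 positive. Over all 3 replicates it was 0.024 with 7 positive and −0.36 with 1 positive, so these values depend on the libraries taken. The nuclear medians were −0.084 and −0.13 with replicate 3 and −0.034 and −0.17 with all 3. The count of 2 was 0 without the E11.5 Sox2hi library and 1 without any 1 of the E11.5 Gata4hi library, the 3 Sox2hi libraries or Gata4hi replicates 2 and 3 of E13.5. With 1 library per group at E11.5, the spread rests mostly on the E13.5 replicates. The rest of it comes from how far the stage difference was unlike in both sort groups. The summed erythroid markers were at 5.73 and 19.2 FPKM at E11.5 and at 0 to 0.601 at E13.5 in the epithelium, and their part was not tested.

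In the fibroblasts nearly every nuclear subunit was lower at E17.5 than at E13.5 on both scales, and fewer of the differences were called on the TPM scale. Both E17.5 values lay below both E13.5 values in 77 of 80 nuclear members on the FPKM scale, against 49.5% of all genes. This held for 75 on the TPM scale, against 31.8%. From E13.5 to E17.5, with region as a term, 76 of 79 nuclear members tested were lower on the FPKM scale (27.1% of all 12900 genes) and none was higher (9.96%). By complex these were 35 of 36 in complex I, 4 of 4 in II, 8 of 8 in III, 12 of 14 in IV and 17 of 17 in V. The median nuclear log2 difference was −0.90, beside −0.31 for all genes. On the TPM scale 49 were lower (12.4%) and none higher (16%), with a median of −0.54 where that of all genes was at 0. The summed nuclear FPKM at E17.5 was 0.530 (proximal) and 0.553 (distal) times that at E13.5, and the share of the FPKM sum 0.701 and 0.696 times. The nuclear members not called were Cox4i2, Cox6b2 and Ndufa1. Cox6b2 was at 81.3 and 47.8 FPKM (proximal and distal) at E13.5, 55.3 and 57.7 at E15.5 and 54.7 and 55.8 at E17.5, and Ndufa1 at 111 and 110.0, then 100.2 and 93.5, then 79.4 and 87.7 (adjusted p = 0.0502).

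Most nuclear members were lower at each step. Of the 80 nuclear members that averaged 1 FPKM or more, 72 were lower at E15.5 than at E13.5 and lower again at E17.5 in both regions, against 26.8% of all genes, and on the TPM scale 57 were, against 14.2%. Of 12 mitochondrial members 5 were on the FPKM scale and 2 on the TPM scale. Ndufb8 went from 309 and 280.3 FPKM (proximal and distal) to 201 and 190.5 and then to 122 and 107 (E17.5 against E13.5, log2 −1.36 ± 0.095 (SE), adjusted p = 0.00403; TPM scale −0.99, adjusted p = 0.00545). Ndufb7, another membrane arm subunit, went from 90.0 and 94.9 FPKM at E13.5 through 56.6 and 51.1 at E15.5 to 34.5 and 36.6 at E17.5 (log2 −1.35 ± 0.12 (SE), adjusted p = 0.00551; TPM scale −1.002, adjusted p = 0.00976). Atp5sl, a gene named after the ATP synthase that acts in the assembly of complex I, went from 16.1 and 16.5 FPKM at E13.5 through 8.94 and 11.2 at E15.5 to 4.82 and 6.74 at E17.5 (log2 −1.36 ± 0.16 (SE), adjusted p = 0.00727; TPM scale −1.08, adjusted p = 0.0129). In each of these genes the 3 stages did not overlap. Over the same stages the summed fibroblast markers were higher at each later stage, as given above, and their part in the fall was not tested.

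Of 12 mitochondrial members tested in the fibroblasts, 6 were called lower at E17.5 on both scales, namely mt-Co1, mt-Cytb, mt-Nd1, mt-Nd2, mt-Nd4 and mt-Nd5, with a median over the 12 of −0.97 on the FPKM and −0.63 on the TPM scale. mt-Nd1 went from 2764 and 2006 FPKM (proximal and distal) at E13.5 to 1787 and 1633 at E15.5 and 947 and 873 at E17.5 (log2 −1.37 ± 0.12 (SE), adjusted p = 0.00539; TPM scale −1.01, adjusted p = 0.00593). mt-Nd6 did not follow (log2 0.17, adjusted p = 0.674; TPM scale 0.53, adjusted p = 0.202). The test rests on 1 library per region and stage and 2 residual degrees of freedom. Without either E13.5 library, which leaves 1 residual degree of freedom, no member and no gene was called, and without the E17.5 proximal library 41 nuclear and 2 mitochondrial members were; without the E17.5 distal library 3 mitochondrial members were.

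**Figure D4:**
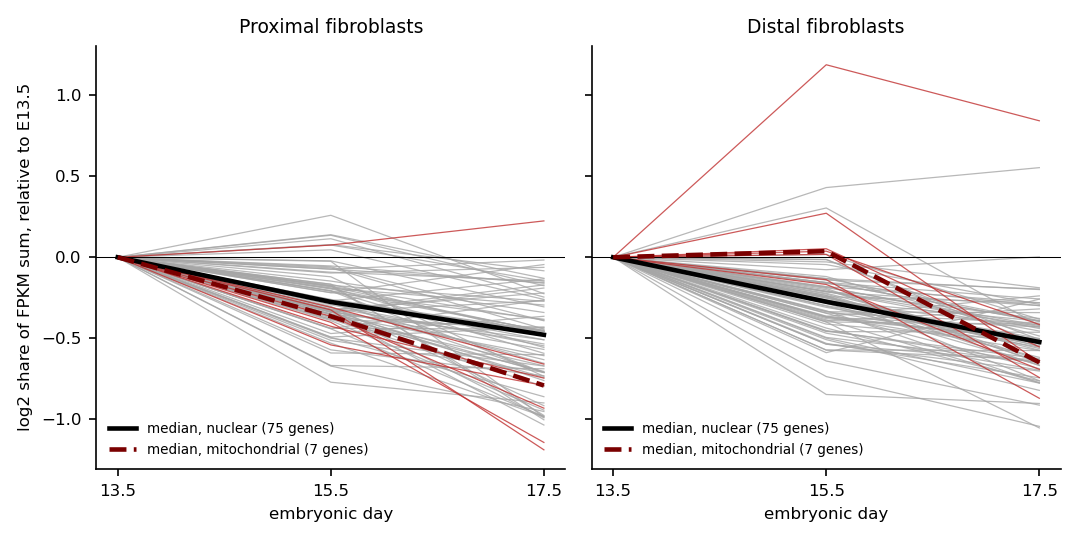
Log2 share of the FPKM sum relative to E13.5 (y axis) by embryonic day (x axis) in proximal (left) and distal (right) fibroblasts, for the 75 nuclear (grey) and 7 mitochondrial (red) members that averaged 20 FPKM or more; thick lines are medians. The nuclear median reached −0.48 (proximal) and −0.52 (distal) at E17.5, and the mitochondrial median −0.79 and −0.65. In distal fibroblasts the mitochondrial median was 0.038 at E15.5. The red line that ends above 0 in both panels is mt-Nd6.

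Between distal and proximal fibroblasts, with stage as a term, no member was called higher or lower on either scale, nor was any of the 12900 genes (0% each way). At an unadjusted p under 0.05 there were 9 nuclear members on the FPKM and 8 on the TPM scale, and no mitochondrial one (share of all genes not given). The largest of these was in Cox4i2, which was higher in the distal library at each stage (log2 1.10 ± 0.32 (SE), unadjusted p = 0.0198, adjusted p = 0.402 by limma). The median nuclear difference was −0.087 and the mitochondrial one −0.29 on the FPKM scale, beside 0.0031 for all genes.

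Against E13.5 fibroblasts, the E13.5 epithelium had lower FPKM of most subunits. Of 80 nuclear members, 66 were lower in the epithelium (30.5% of all 13502 genes) and 2 higher (23.3%), at a median of −0.50 beside −0.084. The lower ones were 32 of complex I, 2 of II, 6 of III, 12 of IV and 14 of V. On the TPM scale 25 were lower (16.8%) and 4 higher (39.8%), at a median of −0.12 beside 0.27. Of 11 mitochondrial members 7 were lower on the FPKM scale and 4 on the TPM scale (mt-Cytb, mt-Nd1, mt-Nd4 and mt-Nd5), and 4 without the E13.5 proximal library. The summed FPKM was 1.36 times as high in the fibroblasts for nuclear and 1.65 times for mitochondrial members, and their share of the FPKM sum 1.05 and 1.27 times. The 2 fibroblast libraries, 1 of each region, stood in for replicates.

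The members named next were called on both scales, which the rule for naming put first. Cox6b2 was 4.73 times as high in the fibroblasts as in the epithelium (log2 of epithelium against fibroblasts −2.24 ± 0.22 (SE), adjusted p = 3.9e-05; TPM scale −1.91, adjusted p = 8.16e-05). Ndufa5, a subunit of the peripheral arm of complex I, was at 134, 120.03 and 141 FPKM in Sox2hi, 110.2 and 94.2 in Sox2midGata4mid and 128, 141 and 148 in Gata4hi cells and at 329.7 and 235 in proximal and distal fibroblasts (log2 −1.17 ± 0.13 (SE), adjusted p = 6.82e-05; TPM scale −0.79, adjusted p = 0.000295). Ndufa1 (log2 −1.001 ± 0.098 (SE), adjusted p = 3.44e-05; TPM scale −0.62, adjusted p = 0.00109) and Ndufs5 (log2 −0.96 ± 0.17 (SE), adjusted p = 0.00142; TPM scale −0.58, adjusted p = 0.0133) were lower in the epithelium as well. Ndufs5 has a near-identical annotated copy, BC002163, described below, so its value is uncertain. Summed with that copy, it was at 31.3 to 73.7 FPKM in the epithelium and at 97.5 and 77.8 in proximal and distal fibroblasts. The difference of mt-Co2, 1 of the 6 low mitochondrial genes, was larger than these of complex I at −1.32 and was not called (adjusted p = 0.101). Cox5a, the subunit of complex IV next to the catalytic core, went against the rest: it was at 118, 134 and 128 FPKM in Sox2hi, 112 and 109 in Sox2midGata4mid and 131, 143 and 157 in Gata4hi cells, and at 111 and 97.2 in E13.5 fibroblasts (log2 0.28 ± 0.088 (SE), adjusted p = 0.0257; TPM scale 0.66, adjusted p = 0.000204). Cox5a and Cox7a1 (log2 1.71 ± 0.20 (SE), adjusted p = 0.0001) were called higher in the epithelium on both scales. Without the distal library Cox5a was not called (log2 0.18) and Cox7a1 was the 1 nuclear member called higher.

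Other genes of the pathway were counted in lists, which like the members were chosen with earlier results of these data known. Between Gata4hi and Sox2hi cells on the FPKM scale, 14.9% of all genes were higher and 6.7% lower. Of 17 genes in the Krebs cycle list, which counts in pyruvate dehydrogenase, 4 were higher and none lower. They include Pdha1, of pyruvate dehydrogenase, at 30.2, 26.8 and 34.1 FPKM in Sox2hi and 54.8, 49.3 and 57.7 in Gata4hi cells (log2 0.81 ± 0.11 (SE), adjusted p = 0.00141), and Suclg1, of succinyl-CoA ligase (0.54, adjusted p = 0.00798). Of 51 assembly factors 5 were higher, among them Uqcc3 (0.65) and Atpaf2 (0.69), of complexes III and V. Of 77 mitochondrial ribosomal protein genes 12 were higher, led by Mrps33 (0.69) and Mrpl24 (0.55). Of 20 carrier and import genes 2 were higher, the ATP/ADP carrier Slc25a5 (0.60) and the outer membrane channel Vdac2 (0.36), and of 17 electron carrier and coenzyme Q genes Coq7 (0.53) and Etfdh (0.34). No gene of these lists was lower on the FPKM scale. The assembly factors, carriers and electron carriers stayed below the share of all genes that were higher, and the ribosome was close to it.

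Of 27 genes of mitochondrial genome maintenance and transcription, Elac2 (0.56) and Tfam (0.36), which packages and transcribes the mitochondrial chromosome, were higher and Mterf3 (−0.42) was lower. Of 13 nuclear regulators 3 were higher, led by the growth regulator Myc, at 1.48, 2.15 and 2.2 FPKM in Sox2hi and 8.29, 9.57 and 6.40 in Gata4hi cells (log2 1.62 ± 0.21 (SE), adjusted p = 0.00115), and Ppard (0.96), and Gabpb2 (−0.30), a subunit of the ETS factor GABP, was lower. Among 4 tested subunits outside the naming rule, Atpif1 (0.59), which inhibits complex V, and Usmg5 (0.19), one of its membrane subunits, were higher. Ucp2 was the 1 uncoupling protein gene tested, at 96.9, 88.6 and 103 FPKM in Sox2hi, 116 and 101 in Sox2midGata4mid and 156, 169.6 and 198 in Gata4hi cells (log2 0.85 ± 0.11 (SE), adjusted p = 0.00125). On the TPM scale, where 9.42% of all genes were higher and 10.4% lower, the numbers higher and lower were 3 and 0 for the Krebs cycle, 1 and 3 for assembly factors, 0 and 1 for the ribosome, 1 and 0 for carriers and import, 1 and 1 for electron carriers, 0 and 3 for genome maintenance, 3 and 1 for regulators, 1 and 0 for subunits outside the rule and 1 and 0 for uncoupling. Of the genes named from these lists, Atpaf2, Mrps33, Mrpl24, Vdac2, Etfdh, Elac2, Tfam and Usmg5 were not called on the TPM scale (adjusted p from 0.0597 for Elac2 to 0.731 for Usmg5), and the others were called in the same direction.

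The mitochondrial ribosome, the longest list, was also counted in other comparisons. On the FPKM scale 26 of its 77 genes were lower in Sox2midGata4mid than in Gata4hi cells, beside 11% of all genes, and none was on the TPM scale, beside 3.03%. In fibroblasts 68 of 77 were called lower at E17.5 than at E13.5, beside 27.1% of all genes, and 40 were on the TPM scale, beside 12.4%. In epithelium against fibroblasts 36 were lower and 2 higher, beside 30.5% and 23.3% of all genes, and on the TPM scale 9 were lower and 19 higher, beside 16.8% and 39.8%. Over the same fibroblast stages 30 of the assembly factors, 15 of 20 carriers and import genes, 13 of the genome maintenance genes, 9 of the Krebs cycle list and 8 of the electron carriers were called lower on the FPKM scale. On the TPM scale 11, 12, 5, 4 and 3 of them were. Of the regulators 2 were called higher and 1 lower on both scales, and 1 electron carrier gene was called higher on both. Of all genes, 9.96% were called higher on the FPKM scale and 16% on the TPM scale, and 27.1% and 12.4% lower. Apart from the ribosome and the carriers, the number of genes tested per list in the fibroblasts is not given. No share can therefore be set beside these percentages for the other lists.

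Some members have near-identical annotated copies, so that their values are uncertain. A match of at least 98% identity over at least 80% of a copy was found for 13 nuclear members, namely Atp5f1, Atp5g1, Atp5h, Atp5j, Atp5l, Cox5b, Ndufa12, Ndufab1, Ndufb4, Ndufs3, Ndufs5, Uqcr11 and Uqcrb. The copies of Uqcr11 and Atp5l reached at most 1.47 and 1.44 FPKM in any library. Ndufa12, of the NADH-oxidising module, was at 70.3, 112 and 49.0 FPKM in Sox2hi, 56.9 and 91.3 in Sox2midGata4mid and 80.4, 124 and 66.3 in Gata4hi cells. In each group replicate 2 was the highest. Its copy Gm15920 on chromosome 5 was at 0.11, 1.57 and 0.13 FPKM in replicate 2 of the 3 groups and at 2.24 to 20.5 in the 13 other libraries.

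Cox7a2l shares a stretch of identical sequence with Gm6969 on chromosome 12, and Ndufs5 a nearly whole coding copy in BC002163 on chromosome 16. Gm6969 was at 29.4, 0 and 28.4 FPKM in Sox2hi, 36.3 and 0 in Sox2midGata4mid and 38.9, 0.929 and 30.6 in Gata4hi cells, against 18.1 to 52.9 in the E11.5 and fibroblast libraries. Again replicate 2 of each group stood apart. BC002163 was at 0.195, 24.6 and 5.15 FPKM in Sox2hi, 0 and 2.06 in Sox2midGata4mid and 0, 28.8 and 14.0 in Gata4hi cells, and at 28.7 and 25.9 in E17.5 fibroblasts, so that replicate 2 was its highest in all 3 epithelial groups. The replicate 2 libraries thus share values of these copies across groups, and whether reads moved between a member and its copy was not tested. Ndufa12 and Ndufs5 were not called between the E13.5 epithelial groups on either scale. In fibroblasts both were called lower at E17.5 than at E13.5 on both scales. Summed with BC002163, Ndufs5 was at 97.5 and 77.8 FPKM (proximal and distal) at E13.5 and at 61.5 and 63.9 at E17.5. Cox7a2l was called higher in Gata4hi than in Sox2hi cells on the FPKM scale. Summed with Gm6969, it was at 85.7, 53.8 and 89.6 FPKM in Sox2hi and 113.7, 72.1 and 104.1 in Gata4hi cells. These ranges overlapped.

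**Figure D5:**
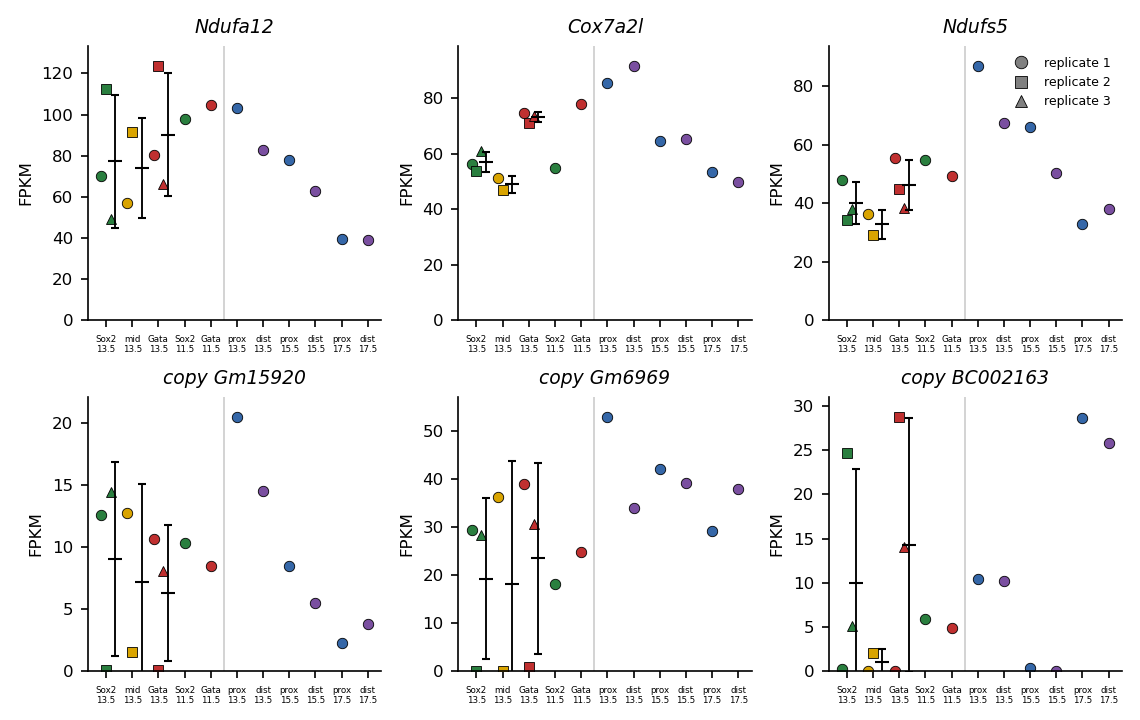
FPKM (y axes from 0) of Ndufa12, Cox7a2l and Ndufs5 (top) and of their annotated copies Gm15920, Gm6969 and BC002163 (bottom) in each group (x axes). Points are libraries, with circles, squares and triangles for replicates 1, 2 and 3, and black bars are mean ± SD of the E13.5 epithelial groups; Gm6969 was at 0, 0 and 0.93 in replicate 2 of the Sox2hi, Sox2midGata4mid and Gata4hi cells.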

How the data were processed

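The authors deposited FPKM values of 16 libraries made from polyadenylated mRNA with a stranded kit (TruSeq), sequenced as single reads. The submitters' processing notes name cutadapt 1.16, HISAT2 2.1.0, Cufflinks 2.2.1 and mm10. The strand setting, the annotation release, the normalization mode, any filter and the treatment of reads with several matches are not given in the sources used here. Of 53773 lines, 1 was emptied in the copy used and 61 repeat a gene identifier, leaving 53711 genes (the entry with the highest mean was kept). All 16 columns matched a library.

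Members and lists were chosen with earlier results of these data known. Tests were made with limma 3.58.1 (R 4.3.3) on log2(FPKM + 1), for genes that averaged 1 FPKM or more in the libraries fitted, with a variance trend and Benjamini-Hochberg adjustment over all genes of a comparison, called under 0.05. Fold changes of low genes are understated on this scale. The E13.5 epithelial comparisons share 1 fit of 8 libraries, the stage comparison had sort group as a term, and the fibroblast fit had region and stage. The same fits were run after division by the FPKM sum (TPM scale). The code was tested on simulated data. No counts are given, so no depth-based interval could be given. Depth was read relative to Sox2hi replicate 1 from the steps between low values. Copies were searched with blastn 2.17.0 in GENCODE M21 transcripts, in which 87 of the 97 members had the coordinates given in the deposit. Data were handled with Python 3.11.15, pandas 2.3.3, numpy 2.4.6 and data.table (version 1.17.8).

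Whether replicate numbers pair the groups was read from the correlation of deviations from the group means over 13127 genes. For Sox2hi and Gata4hi it was 0.113, 0.119 and 0.163 for equal numbers and −0.0993 to −0.0156 for different ones. Deviations cancel within a group, so the negative values follow from the positive ones and add no separate support. The numbers may thus pair these groups, a reading from the data and not from the stated design. The main tests had no replicate block, so their p-values leave such a pairing out, and results with the block are given as an alternative.

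Named were the tissue isoform sets, the highest, median and lowest mitochondrial member, up to 3 called members per complex between Gata4hi and Sox2hi cells, members called in both comparisons of Sox2midGata4mid cells, up to 4 called members each way in the other comparisons and up to 2 each way per other list, by largest change, among genes averaging 5 FPKM or more, with calls on both scales first. Ndufa1 between epithelial groups, Atp5b, mt-Nd2, mt-Co2 between epithelium and fibroblasts, Ndufa12 and the copies were added after their values were seen. Alternatives were both scales, a scale without mitochondrial genes, quantile normalization, a pseudocount of 0.1, no filter or a minimum mean of 5 FPKM, no trend, only both groups compared, the replicate block and each library left out. Replicates 1 and 2 alone and an interaction of stage and sort were added after the data were seen.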

Additional observations from a re-analysis of the deposited data

Results flagged for a closer look

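In 5 of 36 results looked at, every E13.5 library of the Sox2hi cells lay on one side of the E11.5 Sox2hi library and every E13.5 Gata4hi library on the other side of the E11.5 Gata4hi library. The share of all genes with this pattern is not given. All 5 genes had been named for their call between Gata4hi and Sox2hi cells in the same E13.5 libraries. That choice favours such a pattern, so the count adds no separate support. The difference between both stage differences (Gata4hi minus Sox2hi, log2) was 0.22 in Atp5c1 (adjusted p = 0.569, limma interaction of stage and sort), 0.18 in Atp5l (0.736), 0.31 in Ndufa9 (0.481), −0.35 in Ndufb8 (0.443) and 0.55 in Ndufv3 (0.347). None of the 91 members tested passed this interaction test on the FPKM or the TPM scale, where the smallest adjusted p were 0.164 and 0.247 and 5 and 4 members had an unadjusted p under 0.05. Of all 13114 genes 165 and 159 passed. With 1 library per group at E11.5, the E11.5 side of each difference has no replicate.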

How the results depend on the processing

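The count of nuclear members higher in Gata4hi than in Sox2hi cells (18) was 2 on the TPM scale and on the scale without mitochondrial genes, 3 after quantile normalization, 11 with no filter, 6 with no trend, 6 with replicates 1 and 2 only, and 4 to 17 with 1 library left out. The count lower (2) was 3 on the TPM scale and on the scale without mitochondrial genes, 4 after quantile normalization, 1 with no filter, with no trend, in the 2 groups alone, with the replicate block or with replicates 1 and 2 only, and 1 to 3 with 1 library left out. Quantile normalization gave 1 mitochondrial member lower. Of Sox2midGata4mid against Sox2hi, the 9 lower members were 1 on both TPM scales, 3 after quantile normalization, 4 with no filter, 3 with no trend, 2 in the 2 groups alone, 3 with the replicate block, 0 with replicates 1 and 2 only and 1 to 5 with 1 library left out (mitochondrial members 0 to 2). Against Gata4hi, the 47 were 3 on both TPM scales, 5 after quantile normalization, 31 with no filter, 28 with no trend, 29 in the 2 groups alone and 13 to 41 with 1 library left out, and 1 mitochondrial member was lower in the 2 groups alone and with the replicate block (0 to 2 with 1 library left out). These groups share only 2 replicate numbers, whose deviations correlated at 0.0971 and 0.0854 with Sox2hi and 0.157 and 0.132 with Gata4hi cells. The block gave 16 members higher in Gata4hi than Sox2hi cells and 42 lower in Sox2midGata4mid than Gata4hi cells. The share of all genes called is given above for the FPKM and TPM scales. Counts under the other settings in this section come without that share and so lack a background.

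For E13.5 against E11.5, the count lower (2) was 1 on both TPM scales, after quantile normalization, with no filter, with the higher filter and with no trend, and 0 to 2 with 1 library left out. The fibroblast stage count (76) was 49 and 50 on both TPM scales and 0 to 57 with 1 library left out, the mitochondrial one 0 to 6. For epithelium against fibroblasts, the count higher (2) was 4 on both TPM scales and after quantile normalization, 1 with the higher filter and 1 to 2 with 1 library left out. The count lower (66) was 25, 26 and 31 under these scales and 57 to 67 with 1 library left out, and the mitochondrial count (7) was 4, 4 and 1, and 4 to 9. The nuclear share of Sox2midGata4mid cells was 2.104% with mitochondrial genes out of the denominator.

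With 1 library left out, the nuclear share ranged over 2.22 to 2.27% (Sox2hi), 2.07 to 2.08% (Sox2midGata4mid), 2.22 to 2.27% (Gata4hi), 2.28 to 2.36% (E13.5 fibroblasts) and 1.59 to 1.65% (E17.5 fibroblasts), and the mitochondrial share over 1.38 to 1.4955, 1.22 to 1.24, 1.14 to 1.34, 1.46 to 1.87 and 0.959 to 1.04%. For Sox2midGata4mid cells and the fibroblasts, where only 1 library then remains, these ranges repeat the single values given above. Cox4i1 (0.0513) and Cox6c (0.0265) reversed against Gata4hi cells after quantile normalization. Of 35 calls of named members, 35 remained with a pseudocount of 0.1, 14 on the TPM scale, 16 after quantile normalization, 21 with no filter, 18 with no trend, and 6 under every alternative. The causes were not tested. Read numbers are not given, which limits what can be said of members at a few FPKM.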
